A study of Homo sapiens with 16 samples.

Results

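The MYC-MAX-MXD network is the set of transcription factors built around the dimerization partner MAX, and 10 of its genes were followed in H1299, a cell line from a human lung carcinoma, after knockdown (KD) of YEATS2. YEATS2 is a histone reader and a subunit of the ATAC histone acetyltransferase complex. The genes were taken by symbol from a read count table of 12676 genes, and all 10 of them were listed: MYC, MAX, MXD1, MXD3, MXD4, MXI1, MNT, MGA, MLX and MLXIP. RNA-seq had been performed on 2 libraries of control cells (shCtrl), which carried a non-targeting vector (shNT), and 2 libraries of YEATS2 KD cells (shYEATS2). The labels do not name the shRNA of the KD cells. The study describes RNA-seq in duplicate with a single shRNA, and reports that another shRNA lowered a partly shared set of genes. With a single shRNA, loss of YEATS2 and an off-target effect cannot be told apart. One protocol is given for all cells. Virus was made in 293T cells, polybrene was present at 8 µg/ml, and puromycin at 2 µg/ml was added 48 h into infection. Selection then lasted 4 to 7 days by the labels, which do not say whether this time differed between groups, and it is shorter in the study's methods. The survivors were sequenced as a selected pool, so a change in the share of cells in a given state and a change of RNA per cell cannot be told apart.

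As background, proteins of this network share a basic helix-loop-helix leucine zipper. As dimers, most of them with MAX, they read the E-box, whose best known form is CACGTG. MYC-MAX dimers are known to activate growth genes, whereas MXD1, MXI1, MXD3, MXD4 and MNT compete for MAX and for the same sites and recruit the SIN3-HDAC corepressor. MXD1 and MXD4 are known from differentiating or resting cells and MXD3 from cycling cells. MGA joins MAX in a Polycomb complex named PRC1.6, and the related protein MLX pairs with MLXIP (MondoA), a sensor of glucose metabolites, and also with MXD1, MXD4 and MNT.

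Because network proteins bind the E-box, the promoters of the network genes themselves were searched for CACGTG, a palindrome that reads alike on both strands. RefSeq promoter windows (250 bases before to 50 after the start, build GRCh38.p14) matched 9 of the 10 genes by symbol. MXD4, MNT and MLX held 1 E-box each, and MAX, MXD1, MXD3, MXI1, MGA and MLXIP held none in this window. The windows of MAX and MXD1 began after the start of the gene in the GENCODE annotation, so bases before that start were not searched. E-boxes stood in 10.5% of the 9859 promoters of listed genes that were matched and in 7.43% of all 27305 promoters. Counted from the RefSeq start, the first base of the E-box was at position -238 in MXD4, -193 in MNT and -50 in MLX. Of the genes with an E-box, MXD4 and MNT rose and MLX was not called. Of those matched without it in this window, MXD1 rose, MXD3 fell and the others were not called. The sequences of the 3 genes with an E-box are shown because they place the motif of the network in genes of the network. They are printed 5′ to 3′ up to the start of the gene in the GENCODE annotation, which lies before the RefSeq start in MNT and MLX, with the E-box in capitals, and an exact match placed each once in GRCh37 (hg19).
MXD4 (chr4:2263837-2264086, minus strand): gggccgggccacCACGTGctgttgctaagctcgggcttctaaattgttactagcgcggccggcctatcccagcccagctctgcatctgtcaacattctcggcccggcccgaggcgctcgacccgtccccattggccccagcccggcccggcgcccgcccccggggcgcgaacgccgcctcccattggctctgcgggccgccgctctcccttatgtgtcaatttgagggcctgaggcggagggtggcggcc
MNT (chr17:2304399-2304604, minus strand): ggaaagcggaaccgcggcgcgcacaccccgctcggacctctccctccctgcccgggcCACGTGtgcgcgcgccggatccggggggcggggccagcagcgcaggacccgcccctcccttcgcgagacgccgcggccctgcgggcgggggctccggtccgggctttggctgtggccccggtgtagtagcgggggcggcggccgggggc
MLX (chr17:40718868-40719089, plus strand): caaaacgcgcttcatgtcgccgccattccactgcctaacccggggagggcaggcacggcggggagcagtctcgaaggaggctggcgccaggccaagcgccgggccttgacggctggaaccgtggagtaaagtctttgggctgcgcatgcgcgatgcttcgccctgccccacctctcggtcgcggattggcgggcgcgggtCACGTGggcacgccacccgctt

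The listed genes received 34718921 to 39417787 reads per library, and each listed gene had at least 101 reads in its highest library, and rarer transcripts could not be followed. YEATS2 itself had 4482 and 4104 scaled reads in shCtrl and 665 and 673 in shYEATS2, a log2 fold change of -2.68 (SE 0.10, n = 2 per group, FDR 0.000583, edgeR quasi-likelihood test). Scaled reads are counts adjusted for library size with TMM factors and put on the scale of an average library. A gene was called when its Benjamini-Hochberg FDR over all 12676 genes was under 0.01, and errors are SD over 2 libraries. In single-gene comparisons of 2 against 2 an exact permutation test cannot go below p = 0.333, so the calls rest on the variance estimate shared across genes. The markers VIM, CDH2, KRT8, KRT18 and KRT7 had reads in every library, and of 11 markers of leukocytes, endothelium and fibroblasts 0 were listed. Of the markers of the line, KRT7 rose (log2 fold change 1.55, FDR 0.00349), and KRT18 gave -0.81 (FDR 0.0283). Whether these differences have a part in the results below was not tested.

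Among the 10 network genes, the 4 with the largest differences in the main fit were MAX-binding repressors, while the MYC libraries of both groups overlapped. Without shCtrl replicate 1, MAX (log2 fold change 0.78) stood above MNT (0.60). MXD4, MXD1 and MNT rose in YEATS2 KD cells, MXD3 fell, and MYC, MAX, MXI1, MGA, MLX and MLXIP were not called. Of all genes tested, 12.9% were called higher and 12.5% were called lower, against 3 and 1 of the 10 network genes. Scaled by total counts, 18.6% of all genes were called higher and 9.2% lower, against 4 and 1 of the 10. At an unadjusted p under 0.05, 7 of the 10 were higher and 1 was lower, compared with 28.7% and 27.8% of all genes. Both shYEATS2 libraries lay above both shCtrl libraries for 7 of the 10, compared with 39.7% of all genes, and below them for 2 of the 10, compared with 39.8% of all genes. Their median log2 fold change stood at 0.37, compared with -0.0019 for the whole table. With total counts instead of TMM factors the median of all genes became 0.118, so fold changes are to be read against a shift of about that size.

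**Figure D1:**
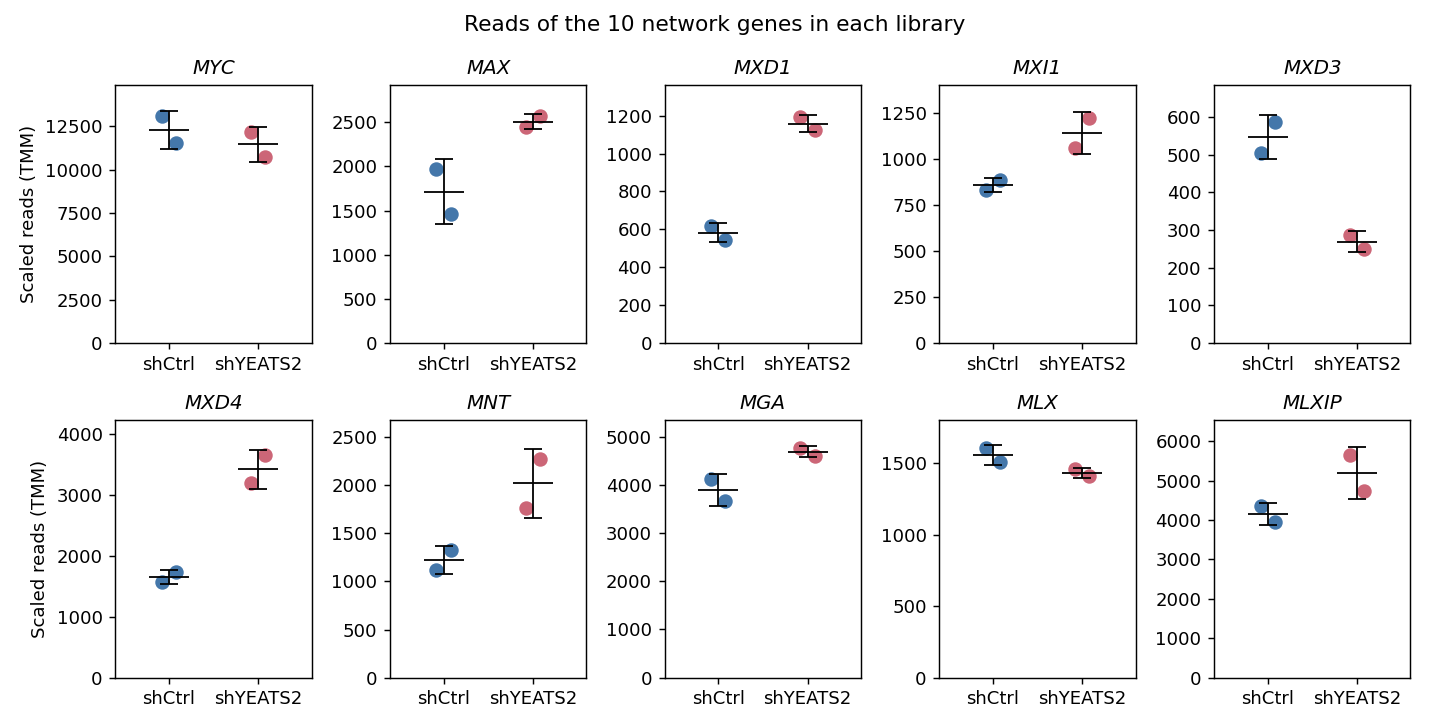
Scaled reads (y axis, from 0, a separate scale for each gene) of the 10 network genes in the 2 shCtrl (blue) and 2 shYEATS2 (red) libraries. Each point is a library, and the horizontal mark and bar give the mean and SD (n = 2). The points of both groups are far apart for MXD1, MXD3 and MXD4 and overlap for MYC.

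MYC (ENSG00000136997, chromosome 8), the activator of the network, had 13062 and 11530 scaled reads in shCtrl and 12146 and 10744 in shYEATS2. The values of the groups overlapped. The log2 fold change was -0.10 (SE 0.11, 95% interval -0.37 to 0.16, FDR 0.467), so a fall by more than 0.37 or a rise by more than 0.16 on the log2 scale lies outside the interval. The sign itself was not fixed, since scaling by total counts gave 0.02.

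MAX (ENSG00000125952, chr14:65472892-65569413), the shared partner, had 1972 and 1456 scaled reads in shCtrl and 2447 and 2569 in shYEATS2. Both KD libraries were above both controls, but the controls lay far apart from each other. The log2 fold change was 0.55 (SE 0.15, 95% interval 0.19 to 0.90, FDR 0.0224) and did not pass the threshold. It ranged from 0.35 to 0.78 with 1 library left out, and alternatives under which MAX was called include the fit when shCtrl replicate 1 was left out (FDR 0.00657), exactTest (FDR 0.00297), DESeq2 (FDR 0.00353) and total counts (FDR 0.00891).

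MXD4 (ENSG00000123933, chr4:2249159-2263836) had, beside MXD1, one of the larger rises. It had 1577 and 1738 scaled reads in shCtrl and 3200 and 3651 in shYEATS2, and the lowest KD value was well above the highest control value. The 2.07-fold difference (log2 1.05, SE 0.11, FDR 0.00129) was called in every alternative fit, and with 1 library left out it was 0.95 to 1.14.

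MXD1 (ENSG00000059728, chr2:70124820-70170077), the founding repressor of the family, had 619 and 546 scaled reads in shCtrl and 1192 and 1126 in shYEATS2. Replicates lay close together in both groups, and the groups were far apart. The 1.99-fold difference (log2 0.99, SE 0.12, FDR 0.00158) was likewise called in every alternative fit, and it was 0.91 to 1.08 with 1 library left out.

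MXD3 (ENSG00000213347, chr5:176728462-176739758) moved in the opposite direction to its relatives. It had 506 and 588 scaled reads in shCtrl and 288 and 248 in shYEATS2, so the KD mean of 268 ± 27.9 was 0.49 times the control mean of 547 ± 58.2 (SD, n = 2). The log2 fold change was -1.03 (SE 0.15, FDR 0.00281). Without shCtrl replicate 2 it was -0.91 and no longer called (FDR 0.0113). MXD3 shares 24.2% of its exon bases with PRELID1 on the opposite strand and 19.5% with RAB24 on the same strand, and the library kit does not keep strand. PRELID1 gave -0.31 (FDR 0.0346) and RAB24 gave 0.08 (FDR 0.718). PRELID1 had 5925 to 6511 reads per library before scaling, against 281 to 542 for MXD3. Whether the shared exons affected the MXD3 counts, and with them its fold change, level, share and ratios, was not tested.

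MXI1 (ENSG00000119950, chr10:111967363-112047123), another MAX-binding repressor, had 834 and 886 scaled reads in shCtrl and 1063 and 1223 in shYEATS2. Both KD libraries were above both controls, with a log2 fold change of 0.41 (SE 0.12, 95% interval 0.13 to 0.69) that did not pass the threshold (FDR 0.0263).

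MNT (ENSG00000070444, chr17:2287367-2304398), a repressor known to be expressed in most cells, had 1122 and 1328 scaled reads in shCtrl and 1767 and 2268 in shYEATS2. The groups did not overlap, and the KD libraries differed from each other more than the controls did. The 1.65-fold rise (log2 0.72, SE 0.15, FDR 0.00876) was close to the threshold. It was not called without shCtrl replicate 1 (0.60, FDR 0.0382) or without shYEATS2 replicate 2 (0.53, FDR 0.0217).

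MGA (ENSG00000174197, chr15:41913332-42065279), the MAX partner in PRC1.6, had 4122 and 3666 scaled reads in shCtrl and 4769 and 4606 in shYEATS2. The KD values were higher, with a log2 fold change of 0.27 (SE 0.10, 95% interval 0.03 to 0.51) that was not called (FDR 0.0638).

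In the MLX arm, MLX (ENSG00000108788, chr17:40719090-40725257) had 1606 and 1505 scaled reads in shCtrl and 1456 and 1408 in shYEATS2, with a log2 fold change of -0.12 (SE 0.10, 95% interval -0.35 to 0.11, FDR 0.332). MLXIP (ENSG00000175727, chr12:122516628-122631894) had 4349 and 3955 in shCtrl and 5662 and 4730 in shYEATS2, with a log2 fold change of 0.32 (SE 0.12, 95% interval 0.04 to 0.61, FDR 0.0599). Neither was called. Exon overlap also touches MLX, which shares 18.2% of its exon bases with PSMC3IP, and MAX, which shares 13.1% with FNTB, both on the opposite strand. MNT shares 12.2% with a long non-coding RNA gene on the opposite strand that was not analysed here. FNTB, a farnesyltransferase subunit, fell (log2 fold change -0.74, FDR 0.00592) while MAX had a positive estimate. Whether shared exons affected the counts of MLX, MAX or MNT was not tested.

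**Figure D2:**
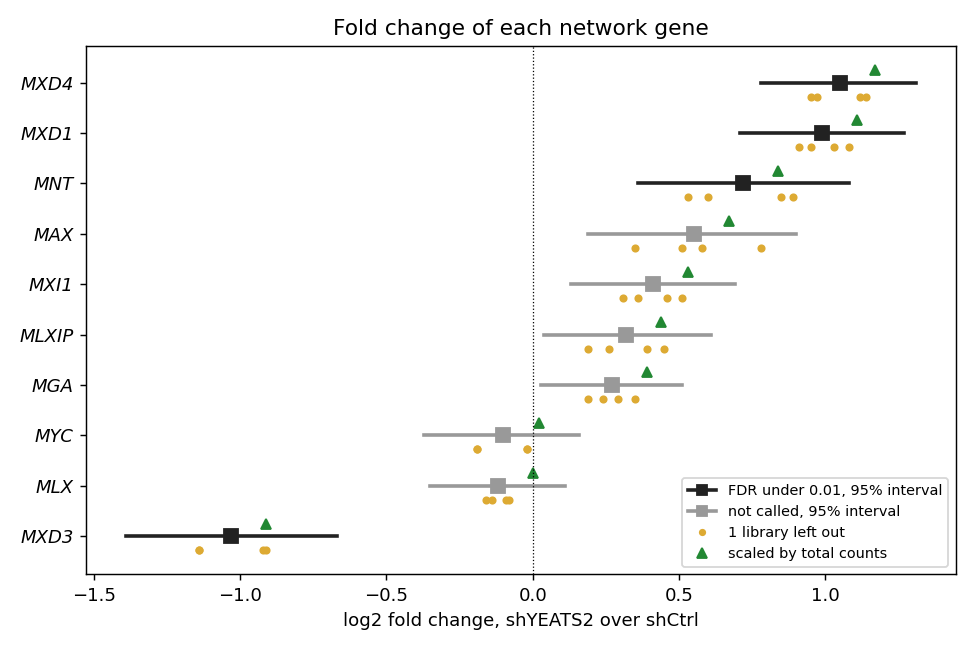
Log2 fold change of shYEATS2 over shCtrl (x axis) for each network gene, with its 95% interval, in black where the FDR was under 0.01 and in grey otherwise. Yellow dots are the estimates with 1 library left out and green triangles those with total counts. MXD4, MXD1 and MNT lie to the right of 0, MXD3 lies to the left, and the intervals of MYC and MLX include 0.

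To compare levels between genes, scaled reads were divided by the annotated exon length. In shCtrl, MYC was far above all others at 2012 scaled reads per kb. It was followed by MLX at 366, MLXIP at 299, MAX at 274, MXD4 at 241, MGA at 194, MXI1 at 146, MNT at 141, MXD3 at 115 and MXD1 at 91.7. In this order the libraries of MLXIP and MAX, of MAX and MXD4, and of MXI1 and MNT overlapped, and the other neighbours were apart. In shYEATS2, MYC was still first at 1874 scaled reads per kb, and MXD4 was second at 498, with both libraries above those of MAX, which had a mean of 401. Then came MLXIP at 374, MLX at 337, MGA at 234, MNT at 232, MXI1 at 194, MXD1 at 183 and MXD3 at 56.5. Here the libraries overlapped between MAX and MLXIP, MLXIP and MLX, MGA and MNT, MNT and MXI1, and MXI1 and MXD1. MXD3 and MXD1, next to each other at the bottom of the order in control cells, stood 56.5 against 183 scaled reads per kb in KD cells. Annotated exon lengths include transcripts that these cells may not use, and this limits such comparisons between genes.

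Ratios of reads within a library need no scaling between libraries, and they were computed as descriptions without a test. The reads of MXD1, MXD3, MXD4, MXI1 and MNT summed to 0.357 and 0.441 of the MYC reads in shCtrl and to 0.618 and 0.793 in shYEATS2. Both KD ratios were above both control ratios, and the mean log2 ratio differed by 0.82, or by 0.64 to 1.00 with 1 library left out. The ratio of MXD4 to MYC was 0.121 and 0.151 in shCtrl and 0.263 and 0.340 in shYEATS2. That of MXD1 to MYC was 0.0474 and 0.0473 in shCtrl and 0.0981 and 0.105 in shYEATS2. The ratio of MXD3 to MYC went the other way, from 0.0387 and 0.0510 to 0.0237 and 0.0231. The ratio of MAX to MYC was 0.151 and 0.126 in shCtrl and 0.201 and 0.239 in shYEATS2, while that of MLX to MYC overlapped between the groups.

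**Figure D3:**
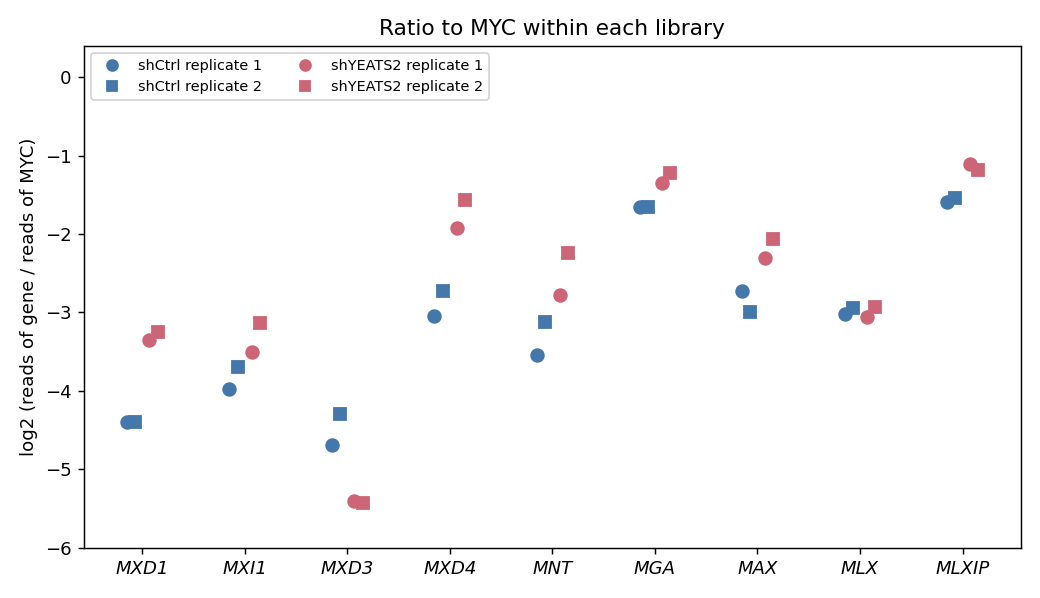
Log2 ratio of the reads of each network gene to the reads of MYC in the same library (y axis), for shCtrl (blue) and shYEATS2 (red), with circles for replicate 1 and squares for replicate 2. The red points are above the blue ones for every gene except MXD3, where they are below, and MLX, where they overlap. Such separation is common with 2 libraries per group. In scaled reads both shYEATS2 libraries lay above both shCtrl libraries for 39.7% of all genes and below for 39.8%. The share for ratios to MYC was not computed. The log2 fold change of MYC, -0.10, enters every ratio.

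Among the 5 repressors, the read shares of MXD3, MXD4 and MXI1 did not overlap between the groups. Non-overlap is common here, since in scaled reads both KD libraries lay above both controls for 39.7% of all genes and below for 39.8%. The shares are parts of a whole, so a rise of any gene lowers the shares of the others. There were 3.12 and 2.96 reads of MXD4 for each read of MXD3 in shCtrl, and 11.1 and 14.7 in shYEATS2. MXD3 supplied 10.9% and 11.6% of the reads of these 5 genes in shCtrl and 3.83% and 2.92% in shYEATS2. MXD4 supplied 33.9% and 34.2% in shCtrl and 42.6% and 42.9% in shYEATS2. MXI1 supplied 17.9% and 17.4% in shCtrl and 14.2% and 14.4% in shYEATS2, a lower share although its scaled reads were not lower. The shares of MXD1 (13.3% and 10.7% against 15.9% and 13.2%) and of MNT (24.1% and 26.1% against 23.5% and 26.6%) overlapped between the groups. Set against MAX, the log2 ratio of MXD3 differed by -1.59, that of MXD4 by 0.48 (0.19 without shCtrl replicate 1 and 0.77 without shCtrl replicate 2) and that of MXD1 by 0.43, and those of MXI1 and MNT overlapped between the groups.

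The proteins that work with the network and its target genes were described next, by lists taken from general knowledge. Earlier results of these data were known when the lists were chosen, so their counts are descriptions. Among the other E-box factors of the same structural class, MYCN, MYCL and MLXIPL were not in the table. USF2 (log2 fold change -0.12, FDR 0.411), a general E-box activator, was not called, and neither was its partner USF1 (0.11), named after its value was seen.

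Of 12 MYC coactivators, 5 fell (41.7%, against 12.5% of all genes) and 7 were not called. Their median log2 fold change was -0.25. WDR5, a scaffold of histone methyltransferases that contacts MYC, had 5873 and 5367 scaled reads in shCtrl and 1518 and 777 in shYEATS2, a log2 fold change of -2.29 (FDR 0.00176). Its KD libraries differed widely from each other but were both far below the controls. KAT2A (GCN5), a histone acetyltransferase, fell by 1.03 on the log2 scale (FDR 0.00792), a call lost with total counts and without shCtrl replicate 1. RUVBL2, an ATPase of chromatin complexes, fell by 0.80 (FDR 0.0026). The remaining calls, named after their values were seen, were ACTL6A (-0.73) and RUVBL1 (-0.52). WDR5 and KAT2A are also ATAC subunits. The values here are of RNA only, and the study reports that YEATS2 KD left the stability of ATAC components unaffected. Without shCtrl replicate 1 only 2 of the 12 were called, and without shCtrl replicate 2 there were 3.

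Of 11 genes that govern the stability of the MYC protein, 3 rose (27.3%) and 1 fell (9.09%), with a median of 0.16. Of all genes, 12.9% rose and 12.5% fell. FBXW7, the ubiquitin ligase subunit that targets MYC for degradation, had 428 and 419 scaled reads in shCtrl and 775 and 917 in shYEATS2 (log2 fold change 1.00, FDR 0.00201). KIAA1524 (CIP2A), an inhibitor of the phosphatase PP2A that protects MYC, had 3727 and 3501 in shCtrl and 1829 and 1536 in shYEATS2 (-1.10, FDR 0.00128). HUWE1, another ubiquitin ligase of MYC, rose (0.62, FDR 0.00365), although not when either control was left out, which left 2 of the 11 called. The third rise, named after its value was seen, was USP28 (0.49, FDR 0.00675), a deubiquitinase that opposes FBXW7. MYC protein was not measured in these data.

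Of 14 genes of the SIN3-HDAC corepressor, which the MXD proteins recruit, 1 rose and 1 fell, with a median of -0.03. Each is 7.14% of the list, below the 12.9% and 12.5% of all genes that rose and fell. ARID4B gave 0.54 (FDR 0.00555), and SAP30 gave -0.65 (FDR 0.00912). ARID4B was called in 1 of the 4 fits with a library left out, and SAP30 lost its call in each of them and kept it under 6 of the 9 other alternatives. Of 13 partners of MGA in PRC1.6, 1 rose (7.69%, all genes 12.9%) and 3 fell (23.1%, all genes 12.5%), with a median of -0.01. The falls were WDR5, which stands in both lists, TFDP1 (-1.04, FDR 0.00234), the dimer partner of E2F6, and CBX3 (-0.63, FDR 0.00453), a heterochromatin protein, whose call was lost without either control. E2F6 itself, named after its value was seen, rose (0.58, FDR 0.0081). Without shCtrl replicate 1, and likewise without shCtrl replicate 2, 2 of the 13 were called.

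Of 57 genes described as induced by MYC, mostly of ribosome assembly and replication, 17 fell (29.8%, against 12.5% of all genes) and 40 did not pass. Those with an unadjusted p under 0.05 were 40 lower and 1 higher (all genes 27.8% and 28.7%), and 53 of the 57 had a log2 fold change below 0, as did 50.1% of all genes. The median was -0.49. HSPE1, a mitochondrial chaperonin, had 7243 and 7426 scaled reads in shCtrl and 2737 and 2083 in shYEATS2 (-1.61, FDR 0.000975). PLK4, the kinase of centriole duplication, gave -1.46 (FDR 0.0021), and TMEM97, a membrane protein of sterol metabolism, gave -1.38 (FDR 0.00142). The count depended on single libraries. It was 5 without shCtrl replicate 1, 11 when shYEATS2 replicate 2 was left out and 30 when shYEATS2 replicate 1 was.

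Of 10 classic direct targets of MYC, 4 fell (40.0%, all genes 12.5%) and 1 rose (10.0%, all genes 12.9%), with a median of -0.57. TFRC, the transferrin receptor, had 15528 and 14207 scaled reads in shCtrl and 6495 and 5935 in shYEATS2 (-1.26, FDR 0.000881). LDHA, the lactate dehydrogenase subunit of glycolysis, had 29508 and 33037 in shCtrl and 15788 and 13260 in shYEATS2 (-1.11, FDR 0.00135). PTMA (-0.75) and BOP1 (-0.73) were the other falls and were named after their values were seen. CCND2, cyclin D2, rose from 60.3 and 124 to 298 and 433 scaled reads (1.99, FDR 0.00465), a call lost without shYEATS2 replicate 2, and the estimate was 2.60 without shCtrl replicate 2. Without shCtrl replicate 1, shCtrl replicate 2 or shYEATS2 replicate 2, 3 of the 10 were called.

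Of 9 genes described as repressed by MYC, 7 were listed. Of these, 3 rose (42.9%, against 12.9% of all genes) and 4 were not called, with a median of 0.89. The median is the value of THBS1, whose groups overlapped (FDR 0.15). At an unadjusted p under 0.05, 3 of the 7 were higher and 2 lower, where 28.7% and 27.8% of all genes were. The lower ones were DKK1 (-0.96, FDR 0.0113) and NDRG2 (-0.78, FDR 0.0519). THBS1, DKK1 and NDRG2 were named after their values were seen. CDKN2B, an inhibitor of cyclin D kinases, had 1045 and 1381 scaled reads in shCtrl and 2268 and 3155 in shYEATS2 (1.16, FDR 0.00422). CDKN1B, an inhibitor of cyclin E kinase, gave 1.07 (FDR 0.0056), a call lost without shCtrl replicate 1. GADD45A, a stress response gene, had 2016 and 1811 in shCtrl and 3652 and 3640 in shYEATS2 (0.93, FDR 0.0013).

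The lists on the MLX arm and on MGA were nearly empty in this table. Of the MLXIP targets, TXNIP was not listed, and ARRDC4, an arrestin-domain protein, rose from 43.0 and 43.4 to 270 and 413 scaled reads (2.98, FDR 0.00103). Of 12 germline genes described as silenced by MGA and PRC1.6, 2 were listed. STAG3, a meiotic cohesin subunit, fell from 3280 and 3177 to 1942 and 1277 (-1.01, FDR 0.00611), and SMC1B, named after its value was seen, gave 0.54 (FDR 0.103).

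**Figure D4:**
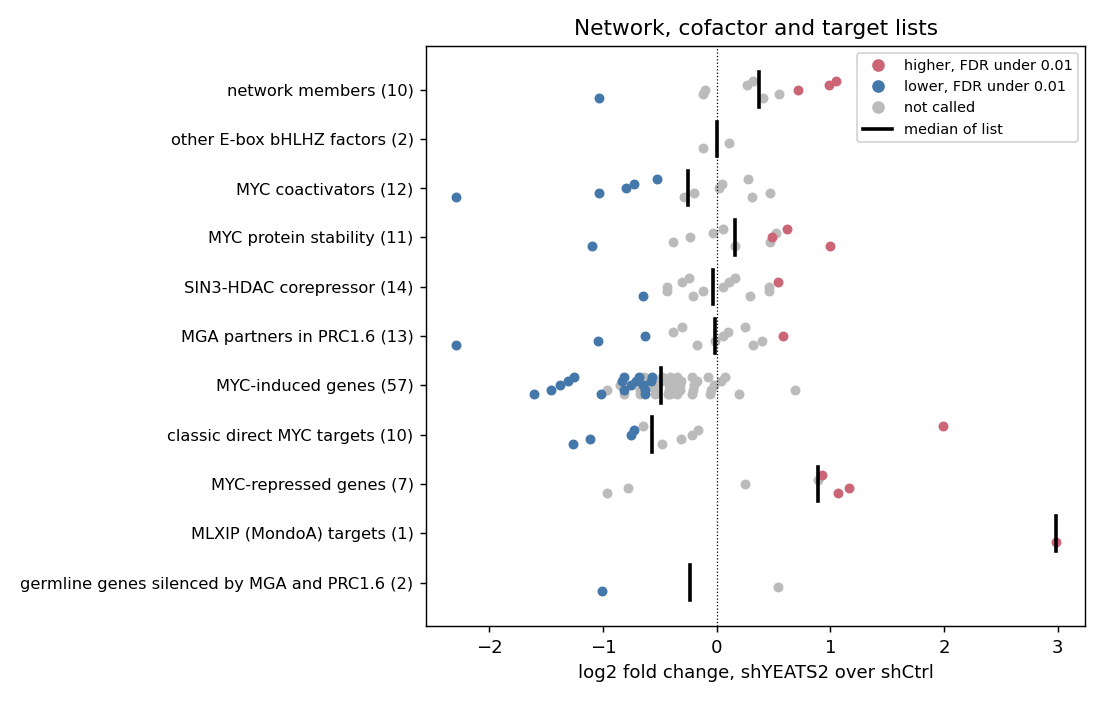
Log2 fold change of shYEATS2 over shCtrl (x axis) of each tested gene in the network and in 10 lists of cofactors and targets, with the number of genes tested in parentheses. Each point is a gene, red where it rose, blue where it fell and grey where it was not called, spread vertically only for display, and the black bar is the median of the list. The points of the MYC-induced genes lie mostly below 0 with a median of -0.49, and those of the network spread from -1.03 to 1.05.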

How the data were processed

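RNA-seq counts of 2 shCtrl and 2 shYEATS2 libraries of H1299 cells, described in the study as independent biological replicates, were used. Groups follow the sample labels. The ChIP-seq samples were not analysed here. The authors mapped reads to hg19 and its transcriptome, counted them per gene with HTSeq at default parameters and deposited whole-number read counts without normalization. The submitters' processing notes name TopHat2 2.0.10 and HTSeq 0.6.1p1, while the study's methods name the RNA-Seq unified mapper. The library kit keeps no strand. The log2 fold changes and p-values that the authors deposited hold their own comparison and were not used.

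A minimum of 10 reads in 2 or more libraries was set, which all 12676 genes met, and tests used edgeR 4.0.16 (R 4.3.3), with the quasi-likelihood test, TMM scaling and Benjamini-Hochberg adjustment, at an FDR under 0.01. The test was checked on simulated data with the same dispersion for every gene and as many rises as falls. This setting is simpler than that of the data. SE values are the log2 fold change divided by the root of F, and 95% intervals use the degrees of freedom of the fit. Total reads of listed genes were 34718921 to 39417787 per library. The biological coefficient of variation was 0.107 and the median SE of a log2 fold change 0.123. Alternatives were exactTest, DESeq2 1.42.0, limma-trend (limma 3.58.1, pseudocount 1), other scalings and filters, a replicate block, an FDR under 0.05 and each library left out. A fit with 1 library in a group assumes that it varies like the other group.

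The 10 network genes and the lists of other genes were chosen with earlier results of these data known, so list counts are descriptions read against all genes. Named were the 10 genes, YEATS2, up to 3 called genes with the largest log2 fold change of each list (or, where none was called, the 1 with the largest mean), and the 5 genes nearest to MYC. One marker of the line is not reported here. Further list members are marked as chosen after their values were seen, and genes that share exons with a network gene and markers of the line are named for that role. Positions and exon lengths come from a GENCODE annotation for GRCh37, which matched 12465 of 12676 identifiers (98.3%).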

Additional observations from a re-analysis of the deposited data

How the results depend on the processing

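The rises of MXD4 and MXD1 and the fall of YEATS2 were called under each of the 9 alternatives and with each of the 4 libraries left out. MNT and MXD3 were called under the 9 alternatives too, and lost the call without the libraries named above. Of the 9 alternatives, the fit without a filter repeats the main fit, since all genes met the filter. Counts of calls moved more than single fold changes. Against 3211 called genes (1630 higher, 1581 lower), there were 3529 (2363 higher, 1166 lower) with total counts, 5083 (2590 higher, 2493 lower) with exactTest, 5457 (2742 and 2715) with a replicate block and 6104 (3093 and 3011) at an FDR under 0.05. With 1 library left out there were 1625 to 3995 called genes, 775 to 1971 of them higher and 850 to 2024 lower, and 0 to 1 network gene called lower, 2 to 3 called higher and 3 to 4 called in all. Network genes called higher were 5 with the replicate block, which adds MAX and MXI1, and 5 at an FDR under 0.05. Of the 125 listed genes, 40 were called, with 64 for exactTest, 75 with the block, 77 at an FDR under 0.05 and 17 to 59 with 1 library left out. The MYC-induced genes called were 31 with exactTest, 30 with DESeq2, 39 with the block, 36 at an FDR under 0.05 and 5 to 30 with 1 library left out, against 17. The summed repressor ratio differed by 0.64 to 1.00 and that of MXD4 to MXD3 by 1.87 to 2.27 with 1 library left out.

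The sign turned with total counts for MYC (0.02), MLX (0.00025) and USF2 (0.0024), and for USF2 also without shYEATS2 replicate 2 (0.0036), against -0.25 without shYEATS2 replicate 1. This scaling shifts all genes upward. The cause of the other differences was not tested. Same-numbered libraries deviated together (r = 0.403 over genes), but with 2 numbers this does not show that the numbers pair the libraries. Each of the 10 genes had at least 248 scaled reads in every library.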

Other observations

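The 5 genes whose values over the 4 libraries lay nearest to those of MYC, among genes with a mean of at least 100 scaled reads, were PSMD2, DDX52, IWS1, MEPCE and ZNF440. PSMD2 encodes a proteasome subunit, DDX52 an RNA helicase and MEPCE a methyltransferase of the 7SK RNA. Their Euclidean distances from MYC in centred log2 values were 0.0137 for PSMD2, 0.0191 for DDX52, 0.0209 for IWS1, 0.022 for MEPCE and 0.0239 for ZNF440. Their log2 fold changes ran from -0.11 for DDX52 to -0.08 for ZNF440. With 4 libraries such nearness is a description of these samples.

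CACGTG stood in 12.0% of the matched promoters of genes that rose, 10.3% of those of genes that fell and 10.5% of those of all genes tested. Of the 47 matched promoters of MYC-induced genes, 20 (42.6%) held it, and 7 of these 20 genes fell, as did 9 of the 27 without it. The median log2 fold change was -0.51 with and -0.49 without the motif in this list, and 0.008 with and -0.015 without it over all genes. The windows cover 250 bases before and 50 after the start, and they say nothing of binding.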
